A study of Homo sapiens with 2 samples.

Results

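The genes considered here encode 6 regulators of complement: CD55, CD46, CD59, CR1, C4BPA and C4BPB, of 20037 protein-coding genes in the annotation. They were chosen on a measured value, the RUNX2 score at CD55, which is one of the highest of its list, and the other members are further genes whose products restrain complement. The values at CD55 that follow from this choice are given as a description, with no test. The study used MDA-MB-231, a cell line derived from a triple-negative breast cancer, and mapped where RUNX2 and MTA1 sit on its chromatin. The published methods name CUT&Tag, but the labels describe adaptor ligation to precipitated DNA, so the library preparation is uncertain. RUNX2 is a transcription factor that binds DNA through its runt domain, and MTA1 belongs to NuRD, a complex that moves nucleosomes and removes acetyl groups from histones. CUT&Tag sequences the DNA next to a protein to which an antibody has tethered a transposase. The cells were not treated, and the groups differed only in the antibody, against RUNX2 in 1 library and against MTA1 in the other. There was 1 library for each antibody and hence no replicate behind any value, and gene expression is not part of these data.

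Complement is a cascade of plasma proteins in which convertase enzymes cleave C3 and C5 on a cell surface and the membrane attack complex then opens pores in the membrane. Host cells carry regulators that stop the cascade at different steps, and tumour cells that carry them are shielded from complement-dependent killing. CD55 (decay-accelerating factor) takes convertases apart, CD46 (membrane cofactor protein) and CR1 serve as cofactors for the cleavage of C3b and C4b by factor I, and CR1 also speeds the decay of convertases. The genes C4BPA and C4BPB encode the alpha and beta chains of C4b-binding protein, a plasma regulator made mainly in the liver. CD59 acts at the last step, where it blocks assembly of the membrane attack complex. CD55, CD46, CR1, C4BPA and C4BPB lie in a cluster of complement regulator genes on chromosome 1, and CD59, which is unrelated to them in structure, lies on chromosome 11.

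The promoters of CD55, CD46 and CD59 are shown first, since the RUNX2 and MTA1 peaks on them carry the main observation. Each run is the 300 bases from 250 bases before a RefSeq transcription start site on GRCh38.p14, read 5′ to 3′ along the gene's own strand. Capitals mark the core letters of the RUNX motif (TGTGGT or TGCGGT, or the same on the other strand, ACCACA or ACCGCA) and of the AP-1 motif (TGANTCA), which overlapped nowhere in these windows. The CD55 window is chr1:207321428-207321727 on the plus strand and the CD46 window is chr1:207751788-207752087 on the plus strand. CD59 has start sites in separate places and is on the minus strand: the outer window is chr11:33736430-33736729 and the inner one is chr11:33722678-33722977.
CD55 promoter: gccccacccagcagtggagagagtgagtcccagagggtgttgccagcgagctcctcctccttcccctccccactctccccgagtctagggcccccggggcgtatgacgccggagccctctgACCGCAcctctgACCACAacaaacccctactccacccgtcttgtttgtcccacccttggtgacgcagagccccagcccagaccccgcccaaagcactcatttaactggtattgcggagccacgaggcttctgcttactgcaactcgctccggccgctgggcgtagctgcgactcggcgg
CD46 promoter: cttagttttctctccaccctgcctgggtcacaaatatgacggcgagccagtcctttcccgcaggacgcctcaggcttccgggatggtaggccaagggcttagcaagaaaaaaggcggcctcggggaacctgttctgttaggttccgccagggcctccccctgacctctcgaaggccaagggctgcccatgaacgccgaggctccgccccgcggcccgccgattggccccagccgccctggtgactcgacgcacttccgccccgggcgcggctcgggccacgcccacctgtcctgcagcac
CD59 outer promoter: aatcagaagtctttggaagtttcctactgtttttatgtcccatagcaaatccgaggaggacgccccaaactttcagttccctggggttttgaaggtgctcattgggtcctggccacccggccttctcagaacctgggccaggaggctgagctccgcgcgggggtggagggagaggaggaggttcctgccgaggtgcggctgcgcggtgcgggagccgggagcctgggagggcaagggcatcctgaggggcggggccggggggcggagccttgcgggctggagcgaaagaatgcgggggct
CD59 inner promoter: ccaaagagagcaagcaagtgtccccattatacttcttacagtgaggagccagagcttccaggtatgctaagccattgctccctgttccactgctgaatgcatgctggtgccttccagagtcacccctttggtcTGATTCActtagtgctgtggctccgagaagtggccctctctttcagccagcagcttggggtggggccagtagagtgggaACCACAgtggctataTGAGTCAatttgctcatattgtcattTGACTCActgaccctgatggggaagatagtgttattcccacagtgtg

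The windows of the remaining members are shown to set them beside these. C4BPB is at chr1:207088610-207088909, C4BPA at chr1:207103983-207104282 and CR1 at chr1:207495907-207496206, all on the plus strand. C4BPB has more than one start site, and the window of the outermost is shown.
C4BPB promoter: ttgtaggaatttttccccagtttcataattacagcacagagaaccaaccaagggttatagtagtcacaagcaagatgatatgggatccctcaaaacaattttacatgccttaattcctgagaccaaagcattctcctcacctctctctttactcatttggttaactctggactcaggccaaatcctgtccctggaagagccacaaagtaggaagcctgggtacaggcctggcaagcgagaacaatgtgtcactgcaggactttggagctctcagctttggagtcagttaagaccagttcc
C4BPA promoter: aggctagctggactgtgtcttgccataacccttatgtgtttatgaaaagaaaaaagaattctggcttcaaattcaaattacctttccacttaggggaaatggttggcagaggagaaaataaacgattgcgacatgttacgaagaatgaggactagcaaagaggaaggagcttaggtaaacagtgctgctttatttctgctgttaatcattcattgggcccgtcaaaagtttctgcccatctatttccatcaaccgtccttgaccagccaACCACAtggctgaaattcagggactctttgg
CR1 promoter: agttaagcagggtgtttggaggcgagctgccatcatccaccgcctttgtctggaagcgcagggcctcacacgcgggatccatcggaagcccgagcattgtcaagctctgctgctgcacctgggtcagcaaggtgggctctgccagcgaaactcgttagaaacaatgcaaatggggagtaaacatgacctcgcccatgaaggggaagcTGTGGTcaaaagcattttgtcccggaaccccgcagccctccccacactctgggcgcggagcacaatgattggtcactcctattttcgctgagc

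The sequences differed in base composition as well as in motif letters. The CD55 window was 65.0% G or C with 19 CpG dinucleotides, the CD46 window 67.0% with 25 and the outer CD59 window 64.3% with 18. The inner CD59 window held 1 CpG at 51.0% G or C, the C4BPB window held 1 at 45.3% and the C4BPA window 5 at 42.3%. The CR1 window lay between these, at 57.3% with 15.

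Peaks of both antibodies lay on the promoters of CD55, CD46 and CD59, but not on that of CR1, which is also a membrane regulator. A RUNX2 peak touched a promoter window of 4 of the 6 members (CD55, CD46, CD59 and C4BPB), where 44.9% of the 15843 protein-coding genes with a promoter sequence had one. An MTA1 peak touched a promoter of 3 members (CD55, CD46 and CD59), against 48.4% of genes, and the same 3 had both antibodies on 1 window, against 40.7%. The counts rest on 6 genes, of which CD55 was chosen for its RUNX2 score, and genes differ in their number of windows. Nothing particular to complement regulators is read from these counts. The score of a peak is the authors' own and its scale is not stated, so it is used below only to order peaks within 1 list. The submitters' processing notes list hg19, but the positions match GRCh38: of 22199 promoter windows 37.5% held a RUNX2 peak and 40.7% an MTA1 peak as listed, against 1.89% and 1.49% after a move of 100 kb.

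**Figure D1:**
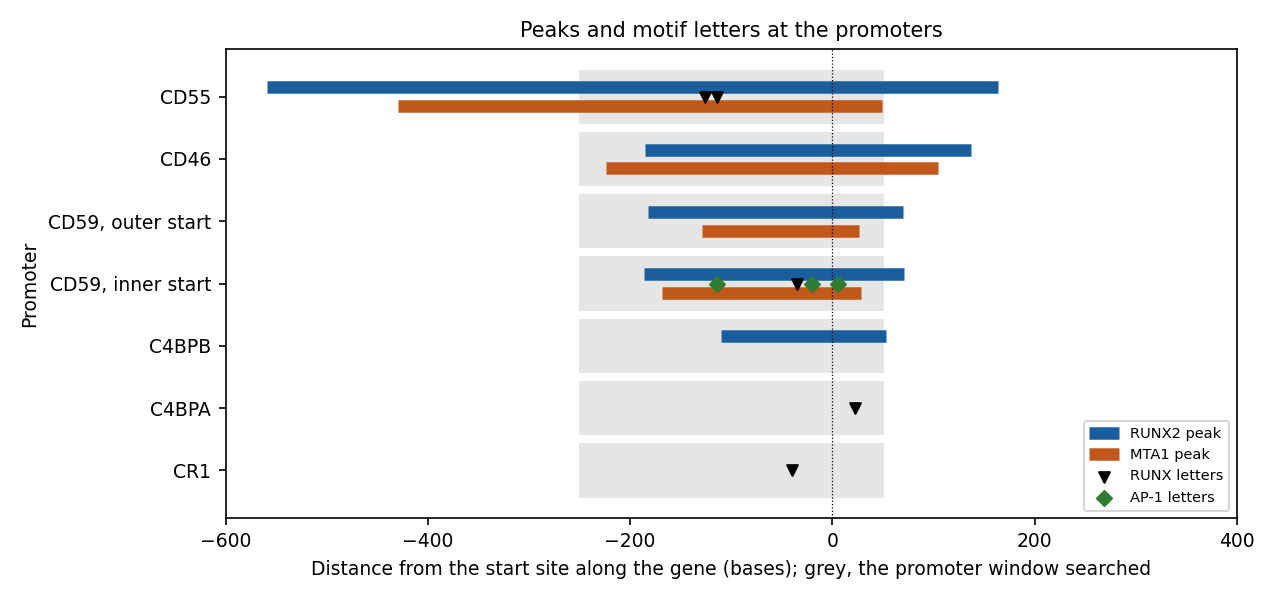
RUNX2 (blue) and MTA1 (orange) peaks as bars at the promoters of the 6 members, with distance from the start site in bases on the x axis, the 300-base window in grey, triangles at RUNX letters and diamonds at AP-1 letters. Bars of both antibodies cover the CD55 window whole and lie over the CD46 and both CD59 start sites, C4BPB has a RUNX2 bar only, and C4BPA and CR1 have none.

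CD55 had the strongest promoter peak of the RUNX2 list. The peak spans chr1:207321119-207321842, from 559 bases before to 164 bases after the start site, with a score of 102.9, which is rank 2 of 61700 and rank 1 among the 7106 genes with a RUNX2 peak on a promoter. It is 724 bp wide, wider than 99.4% of RUNX2 peaks. The MTA1 peak at chr1:207321248-207321727 lies wholly inside it, is 480 bp wide and has a score of 64.2, rank 64 of 42683. Among the 7668 genes with an MTA1 peak on a promoter, CD55 was at rank 47. The MTA1 value did not enter the stated choice of members, but overlapping peaks of these antibodies are not independent readings of a region, and it is given as a description. The printed CD55 sequence holds RUNX letters at ACCGCA, which begins 129 bases before the start site, and at ACCACA, which begins 117 bases before it, and both lie inside both peaks. The region is also covered by LOC107985251, a long noncoding RNA gene, and the peak cannot be assigned to either gene.

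Weaker paired peaks flanked the CD55 promoter on either side. Within the gene, a RUNX2 peak at chr1:207337172-207337437, 15.6 kb downstream of the start site, had a score of 15.6, above 81.7% of its list, and the MTA1 peak on the same spot had 17.1, above 83.5% of its own. Upstream, in the noncoding genes LINC02942 and LOC107985251, RUNX2 peaks 16.7 kb and 11.8 kb from the start site had scores of 8.69 and 9.59, and the MTA1 peaks over them had 8.03 and 6.07. Downstream of the gene, a RUNX2 peak at chr1:207393694-207393875 with a score of 6.40 met an MTA1 peak with a score of 11.3. CD55 thus had 7 RUNX2 and 6 MTA1 peaks within the gene and 50 kb on either side, and 5 of each overlapped, where 45.4% of all RUNX2 and 65.5% of all MTA1 peaks overlapped the other list. The RUNX2 peaks of the window without a partner were the weakest, at 3.48, and the second strongest, at 22.1. The latter, chr1:207405108-207405279 in LOC124904498, lay 11.2 kb from the nearest MTA1 peak, and of the 6751 RUNX2 peaks that score as high, 9.87% lacked an MTA1 peak.

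**Figure D2:**
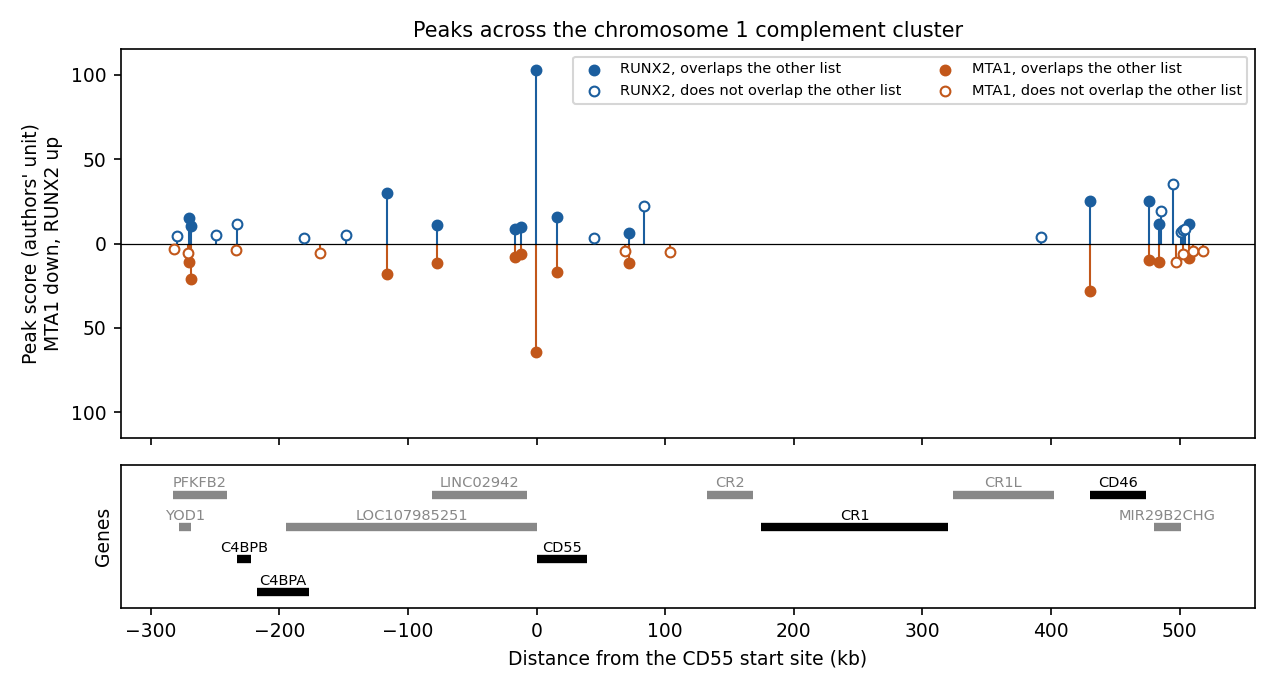
Score of each RUNX2 (up) and MTA1 (down) peak, in the authors' unit, along the complement cluster of chromosome 1, with distance from the CD55 start site in kb on the x axis, filled points for peaks that overlap the other list, open points for those that do not, and genes as bars below with the members in black. The tallest stems of both lists stand at the CD55 promoter (102.9 and 64.2), no stem stands over CR1, and several open RUNX2 points follow CD46.

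At CD46 the promoter peaks of the antibodies were of similar standing. The RUNX2 peak at chr1:207751853-207752175, from 185 bases before to 137 after the start site, had a score of 25.0, above 91.2% of its list. The MTA1 peak at chr1:207751814-207752142 had 28.3, above 94.5%. These were the only peaks inside the gene. Of the genes with a promoter peak, 15.9% had a higher RUNX2 score than CD46 and 18.2% a higher MTA1 score. The CD46 sequence holds none of the RUNX or AP-1 letters, which says only that these letters are not in this window.

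The other CD46 peaks lay mostly beyond the 3′ end of the gene. A peak 1.92 kb past the gene, chr1:207797435-207797646, had a RUNX2 score of 25.1, about that of the promoter, while the MTA1 peak over it had 9.49, above 61.9% of its list. Farther on, RUNX2 peaks lay in MIR29B2CHG, the host gene of the microRNAs MIR29C and MIR29B2. The strongest, chr1:207815902-207816462, scored 35.2, above 95.9% of RUNX2 peaks and above the CD46 promoter, and was 561 bp wide. No MTA1 peak overlapped it, the nearest being 2.57 kb away, and 4.86% of the 2550 RUNX2 peaks that score as high lacked one. A neighbour at chr1:207806910-207807100 scored 19.3 and was also without MTA1, while chr1:207805899-207806032 scored 11.5 with an MTA1 peak of 10.8. The other RUNX2 peaks past the gene scored 6.72 (on the MIR29B2CHG promoter), 8.13, 8.61 and 11.3, of which the last met an MTA1 peak of 8.80, and a single weak one upstream, in CR1L, scored 3.67. The MTA1 peaks without RUNX2 in this window scored 4.36 to 10.97. In all, 4 of the 10 RUNX2 peaks of the CD46 window overlapped an MTA1 peak, a share near the 45.4% of the whole list. With more than one gene in reach, these peaks are placed near CD46 by distance alone.

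CD59 had paired peaks at both of its start regions and its strongest pair outside the gene. At the outer start site the RUNX2 peak (chr11:33736409-33736661) scored 10.5, above 70.6% of its list, and the MTA1 peak (chr11:33736453-33736608) scored 12.8, above 74.4%. At the inner start site the values were 15.6 for RUNX2 (chr11:33722656-33722913) and 15.7 for MTA1 (chr11:33722699-33722896), above 81.8% and 81.2%. A further MTA1 peak of the same score stood 0.396 kb from the RUNX2 peak, at chr11:33723309-33723482, with no RUNX2 peak on it. The inner sequence holds ACCACA beginning 38 bases before the start site and AP-1 letters at TGATTCA (117 before), TGAGTCA (23 before) and TGACTCA (3 after), and all 4 lie inside both peaks. The outer sequence, which is richer in CpG, holds none of these letters.

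The pair beyond the end of CD59 was second only to the CD55 promoter among the members' peaks of each list. The RUNX2 peak at chr11:33690460-33691034 scored 42.2, rank 1547, and the MTA1 peak at chr11:33690413-33691025 scored 49.6, rank 307. It lies in no annotated gene, 12.0 kb past the end of CD59, and C11orf91, which overlaps that end of the gene, reaches part of the way towards it. The RUNX2 peak on the C11orf91 promoter, chr11:33700668-33701191, scored 13.3 and the MTA1 peak on it 5.66. Close to the strongest pair, a RUNX2 peak at chr11:33692282-33692479 scored 16.4 with no MTA1 peak on it. Inside the gene, between its start regions, a RUNX2 peak at chr11:33724372-33724552 scored 11.9 with an MTA1 peak of 5.55. The remaining RUNX2 peaks scored 3.67 to 7.26, in the neighbours FBXO3, FBXO3-DT and KIAA1549L. CD59 had 9 RUNX2 and 9 MTA1 peaks in its window, and 6 of each overlapped, beside 45.4% and 65.5% of the whole lists.

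**Figure D3:**
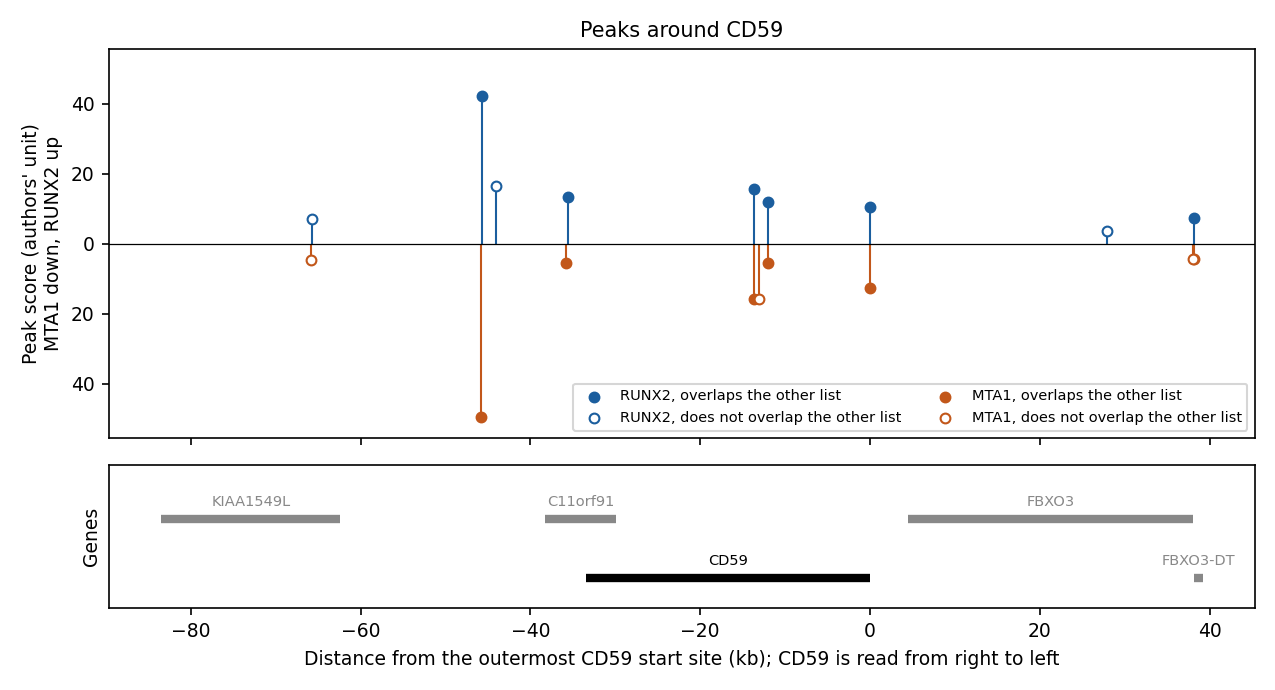
Score of each RUNX2 (up) and MTA1 (down) peak, in the authors' unit, around CD59 on chromosome 11, with distance from the outermost start site in kb on the x axis, filled points for overlapping peaks, open points for the rest, and genes as bars below, where CD59 runs from right to left. Filled pairs stand at both start regions, and the tallest stems, 42.2 for RUNX2 and 49.6 for MTA1, stand to the left of the gene, beyond its end.

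At the genes of C4b-binding protein the best peaks of each window scored lower than those of CD55, CD46 and CD59, and RUNX2 and MTA1 did not meet inside either gene. At C4BPB a RUNX2 peak on the outermost start site, chr1:207088750-207088913, scored 11.4, above 73.1% of its list. The windows of the further C4BPB start sites held no peak of either list and lay 0.076 and 0.12 kb from the nearest RUNX2 peak. No MTA1 peak overlapped it. The nearest, 0.386 kb away, scored 3.89, above 4.94% of the MTA1 list. The C4BPB sequence holds neither motif. The overlapping pairs of its window lay at the neighbouring genes YOD1 and PFKFB2, where a RUNX2 peak of 15.2 met an MTA1 peak of 11.2 and a RUNX2 peak of 10.2 met an MTA1 peak of 21.2. Inside C4BPA the only RUNX2 peak, chr1:207140709-207140807, scored 3.30, above 3.10% of its list, at the narrowest width that the list holds. Its promoter lay 15.1 kb from the nearest RUNX2 and 15.6 kb from the nearest MTA1 peak, and its sequence holds ACCACA beginning 19 bases after the start site. C4BPA and C4BPB are neighbours whose windows overlap, so some peaks are counted for both.

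At CR1 there was no peak of either list, inside the gene or within 50 kb. The RUNX2 list had a gap of 308 kb here, from 207405279 to 207713520, and the MTA1 list one of 326 kb, from 207425424 to 207751814. The median gap between neighbouring peaks was 16.6 kb for RUNX2 and 21.1 kb for MTA1. Of the gaps, 2.21% and 3.78% were as long, and these together held 31.8% and 41.7% of all the distance between peaks. CR2, the receptor for C3d on B cells, lies in the same stretch. The CR1 promoter was 90.6 kb from the nearest RUNX2 and 70.5 kb from the nearest MTA1 peak, and its sequence holds TGTGGT beginning 43 bases before the start site. CR1 has internal repeats and a near copy, CR1L, where short reads may not be placed uniquely, and whether that bears on the gap was not tested.

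Across the members, 5 of 6 had a RUNX2 peak within the gene and 50 kb on either side, where 90.8% of all protein-coding genes had one, and 5 of 6 had an MTA1 peak, against 86.6%. Overlapping peaks stood near 4 of 6 members, against 80.1% of genes. CR1 was the member without either. The members' numbers of peaks were within the range of many genes. All genes had a median of 5 RUNX2 and 4 MTA1 peaks, and 38.7% of genes had as many RUNX2 peaks as CD55 or more, 18.9% as many as CD46, 24.6% as many as CD59, 47.2% as many as C4BPB and 65.3% as many as C4BPA. What set CD55 apart was the score, the value by which it was chosen, since only 0.0150% of genes had a RUNX2 peak in their window that scored as high. For the best MTA1 peak the shares were 1.06% at CD55, 5.04% at CD59, 26.8% at CD46, 40.9% at C4BPB and 82.1% at C4BPA. The order of the members by their best RUNX2 peak (CD55, CD59, CD46, C4BPB, C4BPA) was also the order by their best MTA1 peak. The best peaks of the lists overlapped at CD55 and CD59 only. At CD46, C4BPB and C4BPA they lay at different places, so the shared order is not one of shared sites. With 1 library each, no spread is known for these levels, and it cannot be said which neighbours in the order differ.

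**Figure D4:**
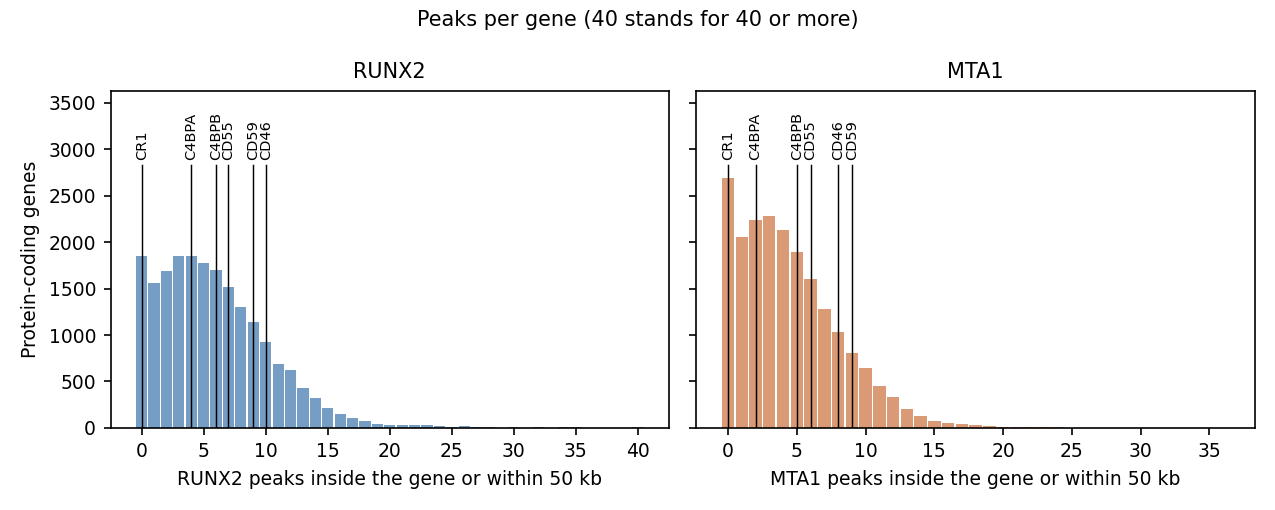
Number of protein-coding genes (y axis) by the number of RUNX2 (left) or MTA1 (right) peaks inside the gene or within 50 kb (x axis), with a vertical line at each member. The members run from 0 peaks at CR1 to 10 RUNX2 peaks at CD46 and 9 MTA1 peaks at CD59, around medians of 5 for RUNX2 and 4 for MTA1 over all genes.

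Counting a shared peak once, the members' windows held 33 RUNX2 and 29 MTA1 peaks, of which 8 and 7 lay inside a member. Of the RUNX2 peaks 17, or 51.5% (exact 95% interval 33.5 to 69.2%), overlapped an MTA1 peak, beside 45.4% of the whole list. Of the MTA1 peaks 17, or 58.6% (38.9 to 76.5%), overlapped a RUNX2 peak, beside 65.5%. The intervals cover counting error over peaks only and are not a test. They treat neighbouring peaks as independent, and the same 17 pairs enter both. The peaks of CD55, which was chosen for its RUNX2 score, are among those counted, so the shares are a description. Paired peaks stood higher in their lists than unpaired ones, as they did over the whole lists. The median overlapping RUNX2 peak scored above 74.3% of its list and the median unpaired one above 52.2%, and for MTA1 these were 69.4% and 13.5%. Over all peaks the corresponding values were 72.4% and 29.3% for RUNX2 and 65.2% and 24.4% for MTA1. Of the 12 unpaired MTA1 peaks 10 scored below the median of their list, beside 83.2% of all unpaired MTA1 peaks. Of the 16 unpaired RUNX2 peaks 7 did, beside 72.8% of all unpaired RUNX2 peaks. Peaks at the narrowest width of their list were rarely paired, with 0 of 6 in RUNX2 and 1 of 9 in MTA1, and over the whole lists 12.4% and 28.1% of such peaks were paired.

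**Figure D5:**
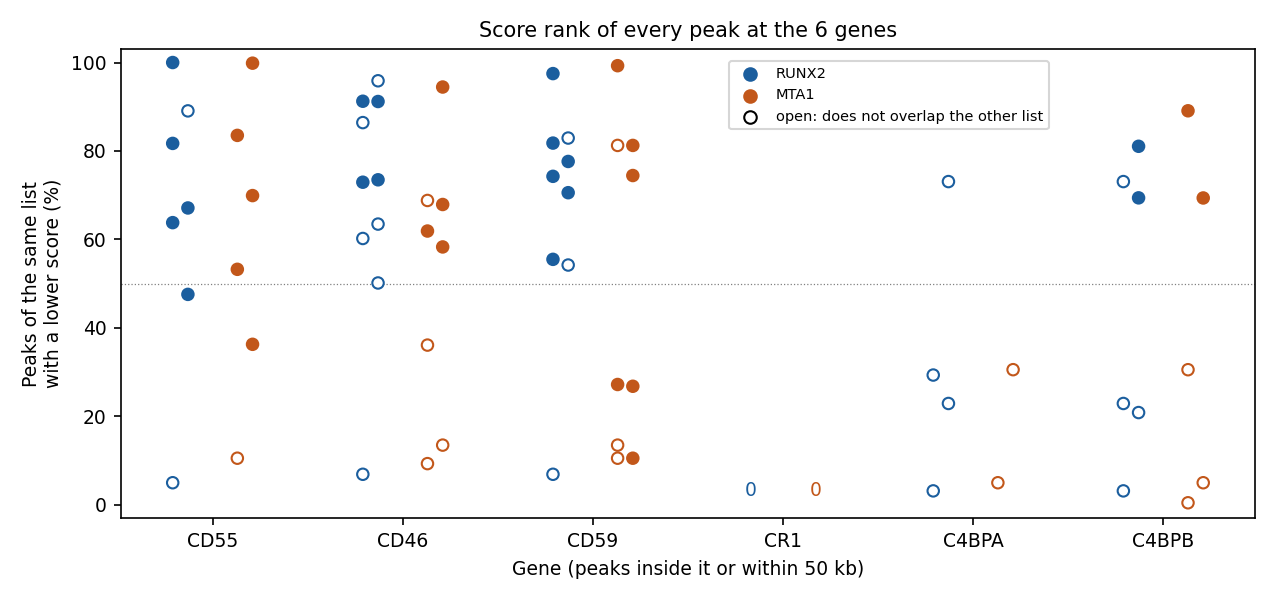
Percent of the own list with a lower score (y axis) for each RUNX2 and MTA1 peak inside or within 50 kb of each member (x axis), filled where the peak overlaps the other list and open where it does not, with a dotted line at the median. Filled points at CD55 and CD59 come closest to the top of the scale, and the highest point at CD46 is an open RUNX2 one. Most open MTA1 points lie below the line, CR1 has 0 peaks of both lists, and a peak shared by the windows of C4BPA and C4BPB is drawn at both.

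The RUNX letters were found in a promoter of 4 of the 6 members (CD55, CD59, CR1 and C4BPA), where 23.6% of genes with a promoter sequence had them. The AP-1 letters were in 1 (CD59), where 8.04% of genes had them. A gene with more windows has more chances of a match. The 6 members had 12 windows, and CD59 had the RUNX letters in 1 of its 4. Of all windows 19.0% held the RUNX letters. Of the members with the letters, CD55 and CD59 had a RUNX2 peak over them and CR1 and C4BPA did not. CD46 and C4BPB had a promoter peak without the letters. Over all 22199 windows the letters stood in 17.5% of those without a RUNX2 peak, in 21.4% of those with one and in 32.4% of those with a peak from the top 10% of the list. Windows with a RUNX2 peak also held more CpG (median 27 against 12), and TGCGGT itself contains a CpG. TGTGGT alone, which does not, stood in 12.0% of windows without a peak, in 10.1% of those with one and in 15.3% of those with a peak from the top 10%. CD55, with more than one match, was among 2.17% of all windows and among the 5.53% of windows with a peak from the top 10%.

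The RUNX2 peaks next to CD55 in score were not on a promoter in the table. The only higher one, chr17:1060958-1061419 inside ABR, a regulator of small GTPases, scored 108, with an MTA1 score of 46.0. The next below lay at chr6:14270873-14271390, 134 kb from CD83, its nearest protein-coding gene, with 101 for RUNX2 and 79.5 for MTA1. A peak inside CTTN, which encodes the actin-binding protein cortactin, scored 101 with an MTA1 score of 28.6, and a peak inside AZIN2 scored 98.7 with 55.5. All of these carried both antibodies, and the lowest of their MTA1 peaks, at CTTN, scored above 94.7% of its list. Pairing is usual at high scores, since 97.5% of the 1547 RUNX2 peaks that score 42.2 or more overlapped an MTA1 peak.

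The edges of the 50 kb windows left out a few strong peaks of the cluster. A pair at chr1:207205092-207205281, 60.1 kb past C4BPA, had a RUNX2 score of 30.2 and an MTA1 score of 18.1, both above the best peaks of the C4BPA window. Past CD46, a RUNX2 peak of 23.7 lay 51.6 kb away and an MTA1 peak of 27.8 lay 52.7 kb away, about the scores of its promoter. Nearest outside the CD55 window were a RUNX2 peak of 10.8 at 77.4 kb and an MTA1 peak of 4.84 at 64.3 kb, far below its promoter.

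The other genes of the complement system were counted in the same way. The list held 53 of them, 45 with a RUNX2 and 43 with an MTA1 peak in the window, where 90.8% and 86.6% of all genes had one, and 32 with a promoter sequence. Of these 32, a RUNX2 peak lay on the promoter of 5 (C1QA, C1QBP, C5, CFB and PROS1) and an MTA1 peak on that of 5 (C1QBP, C2, C5, CFB and PROS1), where 44.9% and 48.4% of all genes with a promoter sequence had one. Among 20 further regulators, 15 had a RUNX2 and 16 an MTA1 peak in the window, and of the 9 with a promoter sequence 2 had each antibody there, C1QBP, which encodes a mitochondrial protein that binds C1q, and PROS1, which encodes protein S, the plasma partner of C4b-binding protein. Among 27 components and proteases, 25 and 21 had a peak in the window, and among 6 receptors 5 and 6. Only 4 of the receptors had a promoter sequence, and no peak of either list lay on these. The promoters of ITGAX and ITGB2 were not examined. The median gene of this list had 3 RUNX2 and 3 MTA1 peaks in its window, below the medians of 5 and 4 over all genes. The medians were 3 and 2 for regulators, 5 and 3 for components and 7.5 and 6 for receptors. The receptor medians rest on 6 genes, which had from 0 (ITGAX) to 22 (ITGB2) RUNX2 peaks. Neighbouring genes such as C5AR1 and C5AR2 share peaks, and gene lengths differ. No difference between the groups is read from these medians.

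Peaks from the top 1% of a list near the other complement genes stood at promoters of unrelated neighbours. They were present near SERPING1, VTN, C2, C4A, CFB, C3 and COLEC11, and all were MTA1 peaks. C2, C4A and CFB shared the same peak, with a score of 48.1 on the promoters of NELFE and SKIC2. Near SERPING1, which encodes the C1 inhibitor, the peak scored 53.3 and lay on the CLP1 promoter 42.6 kb away. Near VTN, which encodes vitronectin, it scored 80.1 at IFT20 and TNFAIP1, 31.4 kb away. Near C3 it scored 49.5 on the GPR108 promoter, 16.9 kb away. None of these peaks lay on the promoter of the complement gene near which it was counted. The CD55 peaks lay on its own promoter, which LOC107985251 also covers, but CD55 was chosen for its RUNX2 score.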

How the data were processed

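RUNX2 and MTA1 were each profiled in 1 library of MDA-MB-231 cells, by CUT&Tag according to the published methods. For each library the authors deposited a peak list of its own, in which every peak has a score. The scale of the score, the threshold and any control were not given in the sources used here, so the score was used only to rank peaks within a list. The submitters' processing notes list hg19, CASAVA 1.4, Bowtie 0.12.8, MACS and MACS2 without their roles. Antibody suppliers differ between the labels and the published methods, and the labels describe adaptor ligation to precipitated DNA, so the reagents and the library preparation are uncertain. Read totals were not used here, the depth is unknown, and a missing peak can be a weak signal below the authors' threshold.

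Of 61717 RUNX2 and 42698 MTA1 peaks, 17 and 15 on mitochondrial DNA were left out. Peaks were counted within each gene and 50 kb on either side, and overlap meant at least 1 bp. Gene names, neighbours and promoter sequences came from RefSeq (GRCh38.p14), and all 6 members matched. The named genes were the members, genes in which a member peak lies or that stand between it and the member, complement genes with a peak from the top 1% of a list, CR2 and CR1L, and the genes nearest the 3 RUNX2 peaks on either side of CD55 in score. CD55 has 1 peak above it. The genes of a complement group named by promoter peak were chosen after their values were seen. Members, lists and measures were chosen with earlier results of these data known. The AP-1 letters were searched after the sequences had been read. No test was run, as neither genes nor peaks stand in for replicates. Intervals are exact (Clopper-Pearson). Alternatives were other windows, thresholds, overlaps, merging of peaks and motif letters, and windows of 100 kb were added after seeing the data. The code that finds overlaps was tested on simulated data. The software was Python 3.11.15 with matplotlib 3.10.9, scipy 1.17.1, pandas 2.3.3 and numpy 2.4.6.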

Additional observations from a re-analysis of the deposited data

How the results depend on the processing

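With the window cut to 10 kb, the members had 11 RUNX2 and 11 MTA1 peaks, 8 of the RUNX2 peaks overlapped an MTA1 peak, and 26 complement genes had an MTA1 peak. Within the genes alone there were 8 and 7 peaks and 6 overlaps, and 3 members had an MTA1 peak. At 100 kb, chosen after seeing the data, there were 50 RUNX2 peaks and 26 overlaps. Peaks at or above the median score left 15 MTA1 peaks. Keeping the 10000 highest of each list left 7 peaks for RUNX2 and 7 for MTA1, 3 overlaps and 3 members with a RUNX2 peak. By construction a narrower window or fewer peaks can only lower a count. No shares over all genes or peaks at these settings stand beside these counts. They show only how far the counts moved, not how the members compare with other genes. With the longer motif, TGTGGTT or TGCGGTT, 2 members had a match, CD59 and C4BPA, beside 7.28% of genes, so the CD55 matches rest on the shorter letters. The other alternatives kept each of these totals within 1.5 times its value, among them merging of peaks within 500 bp (33 RUNX2 and 26 MTA1 peaks), an overlap of 50% of both peaks (16) and centres within 200 bp (19). Of the 12 counts for single members, those that moved by more than 1.5 times were 10 at 10 kb, 10 within the gene alone, 10 with the 10000 highest peaks, 6 at the median score and 7 at 100 kb. At CD55 the 7 RUNX2 and 6 MTA1 peaks became 3 and 2 at 10 kb, the 9 MTA1 peaks of CD59 became 4 at the median score, and the 4 RUNX2 peaks of C4BPA became 14 at 100 kb. CR1 had 2 RUNX2 peaks and 1 MTA1 peak at 100 kb.

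No paired analysis was possible because each antibody had 1 library. The depth is unknown, so weak peaks and absent peaks cannot be told apart. Both lists end at a score of about 3, and whether this is the same threshold on the signal is not known.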
